A study of Mus musculus with 6 samples.

Results

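Bone morphogenetic protein (BMP) signaling and the Id genes were examined in cultured astrocytes transfected with BRAF K499E (KE), a mutation of the kinase BRAF that raises ERK activity and causes RASopathies. The genes were 10 of the 55357 listed, chosen by name. They were the ligand genes *Bmp2*, *Bmp4*, *Bmp6* and *Bmp7*, the receptor gene *Bmpr1a*, the inhibitory SMAD gene *Smad6*, and *Id1*, *Id2*, *Id3* and *Id4*. Per the supplemental methods, the astrocytes came from the cortex of embryonic day 18 C57BL/6 mice. The cells were first grown in DMEM with fetal bovine serum, then shaken and replated in neurobasal medium with B-27 and the EGF receptor ligand HB-EGF. The KE group was 3 cultures transfected with a CMV-promoter plasmid encoding BRAF KE with a FLAG tag, and the NT group was 3 cultures labelled nontransfected. The protocol text in the labels gives the transfection with the BRAF KE plasmid for all 6 samples alike, so it does not say how the NT cultures were handled, or whether they were mock transfected. RNA was collected at 48 hours and sequenced with a stranded mRNA kit. No culture that received an empty plasmid or BRAF WT was analysed here, so the plasmid, the transfection and BRAF KE cannot be told apart. The sources do not say whether the cultures of a group came from separate preparations, so p-values measure the spread between these cultures only.

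BMPs are secreted ligands of the TGF-β superfamily. They bind a type I and a type II receptor, the type I receptor phosphorylates SMAD1, SMAD5 and SMAD9, and these enter the nucleus with SMAD4 and activate target genes. The Id genes are among the best known of these targets. ID proteins have a helix-loop-helix domain but no DNA-binding basic region, and they hold E proteins and so restrain proneural and oligodendroglial bHLH factors. In the developing brain, BMP signaling favors the astrocyte fate over neurons and oligodendrocytes. ERK signaling also acts on this pathway, since ERK can phosphorylate the linker of SMAD1.

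The 250 bases before the annotated start of *Id2*, *Id3* and *Id4* are shown because these neighbors in function differed in their response. They were read from RefSeq's GRCm38.p6 annotation, a table that held 7 of the 10 genes, and *Id1*, *Bmp2* and *Bmp7* are named only. Each runs 5′ to 3′ on the strand of the gene. Capitals mark GGCGCC, the core of the BMP response element, and GTCT, the SMAD binding element, on either strand, so that GTCT on the other strand reads AGAC.
Id2 (chr12:25096093-25096342, minus strand): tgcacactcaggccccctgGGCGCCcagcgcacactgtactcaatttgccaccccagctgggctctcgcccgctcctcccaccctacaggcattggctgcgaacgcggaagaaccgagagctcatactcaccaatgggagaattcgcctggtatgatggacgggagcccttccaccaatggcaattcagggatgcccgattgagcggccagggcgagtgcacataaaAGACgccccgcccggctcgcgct
Id3 (chr4:136143572-136143821, plus strand): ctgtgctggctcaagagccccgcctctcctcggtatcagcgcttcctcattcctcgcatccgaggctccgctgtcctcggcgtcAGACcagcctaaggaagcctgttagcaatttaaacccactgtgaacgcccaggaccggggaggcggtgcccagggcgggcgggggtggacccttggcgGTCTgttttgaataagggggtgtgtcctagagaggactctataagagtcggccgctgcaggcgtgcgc
Id4 (chr13:48260866-48261115, plus strand): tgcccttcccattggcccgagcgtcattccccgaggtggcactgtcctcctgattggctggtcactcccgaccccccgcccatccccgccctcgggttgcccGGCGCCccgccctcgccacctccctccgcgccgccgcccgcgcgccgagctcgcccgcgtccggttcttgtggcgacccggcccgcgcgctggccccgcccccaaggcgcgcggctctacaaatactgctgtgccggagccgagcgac

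GGCGCC occurred 1 time before *Id2*, from position -231 to -226 relative to the start, and 1 time before *Id4*, from -148 to -143, and it was not in the window of *Id3*. Among all 32851 promoter windows of this length, 9.59% held it. GTCT occurred 2 times before *Id3*, from -166 to -163 and from -68 to -65, 1 time before *Id2*, from -23 to -20, and 0 times before *Id4*, and 82.9% of all windows held it. The E box CANNTG, which includes CACGTG, occurred 1 time before *Id2* and in neither of the others (66.2% of all windows), and the ETS core GGAA occurred 2, 3 and 2 times before *Id2*, *Id3* and *Id4* (93.4% of all windows). Of the other 4 windows, that of *Bmpr1a* held GGCGCC. A letter match in such a window is a description only, and the sequence beyond it was not searched.

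The series as a whole set the scale for these genes. *Braf*, the transfected gene, was between 811 and 946 normalized counts under NT and between 34933 and 40978 under KE, which fits the labels. Total normalized counts were nearly even, and an approximate depth, from the value of 1 read in each library, was 24500000 to 34100000 reads. Of the 15280 genes with a mean normalized count of at least 10, 51.3% were differentially expressed (DEGs, adjusted p-value under 0.05 from limma with Benjamini-Hochberg adjustment), 25.3% upregulated and 26.0% downregulated in KE. In 59.9% of the tested genes, all KE values lay on the same side of all NT values. Counts of DEGs among the BMP genes are to be read against these shares.

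Of the 10 genes, 9 were tested, and *Bmp4* was under the mean filter. *Bmp2*, *Id1* and *Id4* were upregulated in KE, *Bmp6*, *Bmp7* and *Id2* were downregulated, and *Bmpr1a*, *Smad6* and *Id3* were not called. These 6 DEGs are 66.7% of the tested members, beside 51.3% of all tested genes, with the 3 rises and 3 falls beside 25.3% and 26.0%. The same 6 genes had no overlap between groups, beside 59.9% of all tested genes. Ligands and Id genes each moved in both directions. The median log2FC of the 9 was -0.03 and the median absolute log2FC was 0.47, against 0.002 and 0.30 for all tested genes. All log2FC values are differences on the scale of log2(normalized count + 1), which understates the change of low genes.

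**Figure D1:**
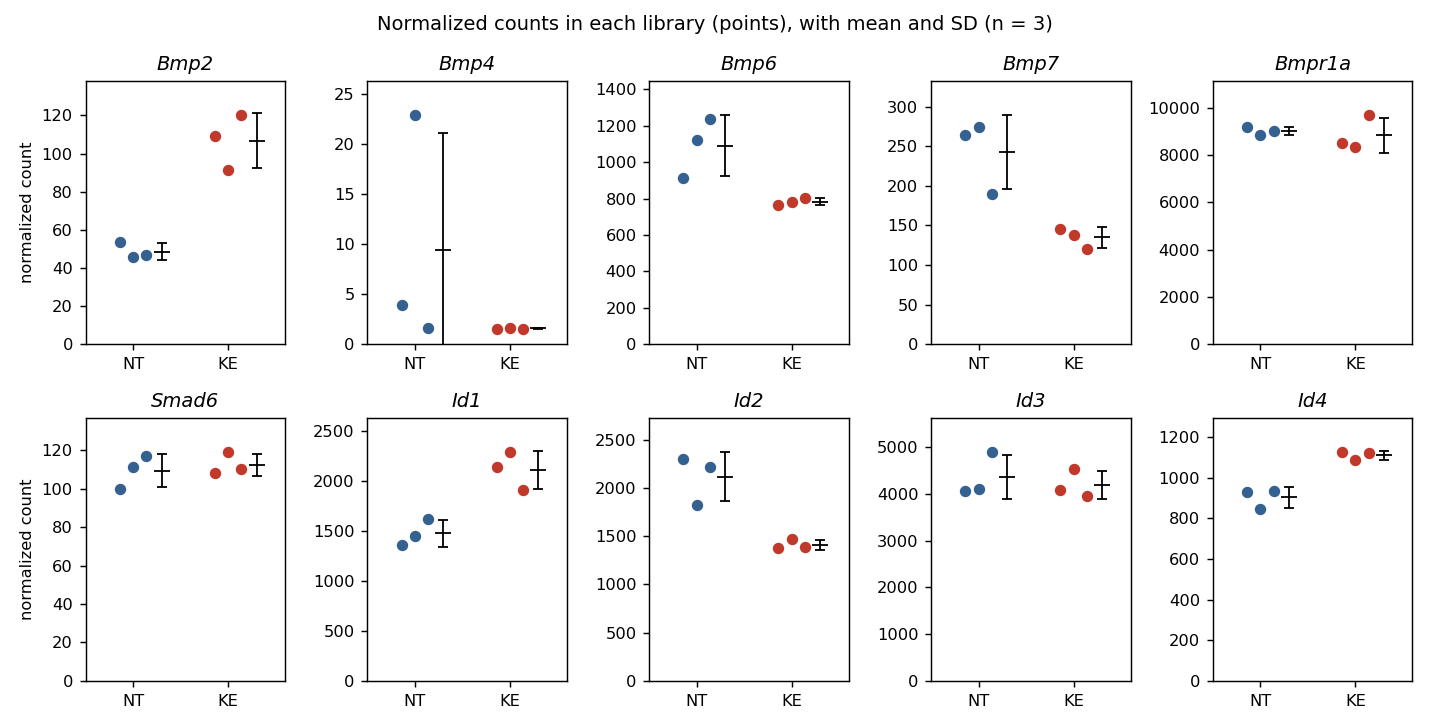
Normalized counts (vertical axis, from 0, a separate scale for each gene) of the 10 genes in each NT (blue) and KE (red) culture, with the group mean and SD (n = 3) in black. The KE points lie above all NT points for Bmp2, Id1 and Id4 and below them for Bmp6, Bmp7 and Id2, and the SD bar of Bmp4 in NT, which runs below 0, is cut at the axis.

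Among the ligands, *Bmp2* (ENSMUSG00000027358, plus strand of chromosome 2 of GRCm39, 133394079 to 133404816) showed the largest rise of the tested members. *Bmp2* encodes a ligand that binds BMPR1A with high affinity and is also known from bone and heart development. Across cultures it had 109, 91.3 and 120 normalized counts under KE and 53.4, 45.6 and 46.7 under NT. The lowest KE culture was thus well above the highest NT culture. Mean levels were 107 ± 14.3 (SD, n = 3) for KE against 48.6 ± 4.25 (SD, n = 3) for NT, with log2FC 1.11 (SE 0.18, adjusted p = 4.1e-04 from limma). By absolute log2FC, *Bmp2* ranked above 90.8% of the tested genes. Its level was low, so each value rests on few reads.

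*Bmp6* and *Bmp7*, which encode ligands of the same subgroup that also signal through ACVR1, went the other way. *Bmp6* (ENSMUSG00000039004, plus strand of chromosome 13, 38529065 to 38684280) was 765, 781 and 804 in KE and 912, 1122 and 1240 in NT. The KE cultures lay close together below the lowest NT culture, and the NT cultures were spread more widely. The log2FC was -0.47 (SE 0.10, adjusted p = 0.0031 from limma). The exons of *Bmp6* share 226 bases with the gene *Txndc5* on the opposite strand, which was at 5107 and 5637 normalized counts on average in KE and NT. The kit keeps the strand, but whether the counting used it is not given in the sources used here.

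*Bmp7* (ENSMUSG00000008999, minus strand of chromosome 2, 172709805 to 172782410) was 146, 138 and 120 in KE and 264, 274 and 190 in NT. The third NT culture was the closest to the KE cultures but remained above them. The KE mean of 135 ± 13.2 (SD, n = 3) compared with an NT mean of 243 ± 46.3 (SD, n = 3), with log2FC -0.83 (SE 0.16, adjusted p = 0.0013 from limma). This was the largest fall among the tested members, at the 84.8th percentile of absolute log2FC over all tested genes.

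*Bmp4* (ENSMUSG00000021835, minus strand of chromosome 14, 46620250 to 46636745), the close relative of *Bmp2*, was hardly detected. It had 1.55, 1.64 and 1.55 normalized counts in KE and 3.89, 22.9 and 1.64 in NT, so that a single NT culture held most of the signal. The groups overlapped, and no difference was detectable at this depth. With no filter on low genes the log2FC was -1.39 (SE 0.69, adjusted p = 0.15 from limma).

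The relation among the ligands was compared within cultures, where the scaling between libraries cancels. The ratio of *Bmp2* to *Bmp6* was 0.143, 0.117 and 0.149 in KE and 0.0586, 0.0406 and 0.0377 in NT. It was higher in every KE culture, by 3.03-fold on average, with an exact two-sided permutation p = 0.1, the smallest that 3 against 3 cultures can give, and an adjusted p of 0.12 over 6 ratios. The ratio of *Bmp2* to *Bmp7* was 3.90-fold higher in KE, likewise without overlap (exact permutation p = 0.1). Since *Bmp2* was higher and *Bmp6* and *Bmp7* were lower in every KE culture, both ratios had to separate. Their p-values restate the single genes and add no further support. The ratio of *Bmp6* to *Bmp7* was 5.23 to 6.67 in KE and 3.45 to 6.54 in NT, with overlap between the groups (exact permutation p = 0.3). These ratios are of counts and are compared between groups only, since the genes differ in length.

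*Bmpr1a* (ENSMUSG00000021796, minus strand of chromosome 14, 34132687 to 34225379) encodes the type I receptor ALK3, which binds BMP2 and BMP4. It was 8490, 8343 and 9676 in KE and 9168, 8825 and 9033 in NT. The NT cultures fell inside the range of the KE cultures. The log2FC was -0.03 with a 95% interval from -0.17 to 0.11 (adjusted p = 0.71 from limma), so a change beyond that interval was not seen.

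*Smad6* (ENSMUSG00000036867, minus strand of chromosome 9, 63860341 to 63929793) encodes an inhibitory SMAD that is itself induced by BMPs and blocks type I receptors. It was 108, 119 and 110 in KE and 100, 111 and 117 in NT. The groups overlapped, with a log2FC of 0.04 and a 95% interval from -0.28 to 0.36 (adjusted p = 0.84 from limma). The interval is wider than that of *Bmpr1a*, and a change of about the size of that of *Id4* would lie within it.

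**Figure D2:**
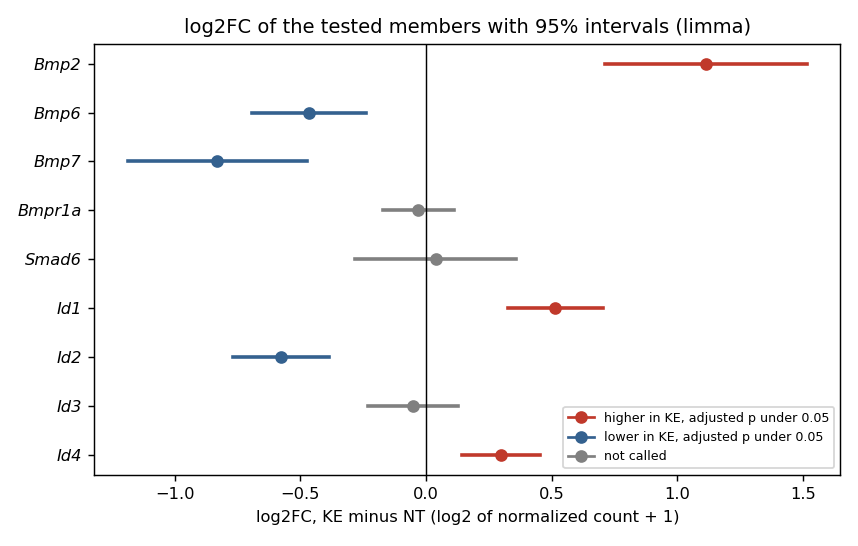
log2FC of KE over NT (horizontal axis, log2 of normalized count + 1) of the 9 tested genes, each point with its 95% interval from limma, in red where upregulated, blue where downregulated and gray where not called. Bmp2 stands at 1.11 and Bmp7 at -0.83, Id1 and Id2 lie on opposite sides of 0, and the intervals of Bmpr1a, Smad6 and Id3 span 0.

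The Id genes did not move together. *Id1* (ENSMUSG00000042745, plus strand of chromosome 2, 152566218 to 152579544) encodes the ID protein most often used as a readout of BMP signaling. It was 2138, 2290 and 1914 in KE and 1357, 1455 and 1624 in NT. All KE cultures were above all NT cultures. From 1479 ± 135 (SD, n = 3) in NT the mean went to 2114 ± 189 (SD, n = 3) in KE, with log2FC 0.52 (SE 0.09, adjusted p = 4.6e-04 from limma).

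*Id2* (ENSMUSG00000020644, minus strand of chromosome 12, 25143798 to 25147282), which encodes an ID protein known to hold back oligodendrocyte differentiation, was 1376, 1469 and 1389 in KE and 2303, 1824 and 2221 in NT. The KE cultures were tightly grouped below the lowest NT culture. From 2116 ± 256 (SD, n = 3) in NT the mean went to 1411 ± 50.2 (SD, n = 3) in KE, with log2FC -0.58 (SE 0.09, adjusted p = 2.3e-04 from limma). In size the fall of *Id2* was close to the rise of *Id1*.

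*Id4* (ENSMUSG00000021379, plus strand of chromosome 13, 48414558 to 48419502) encodes an ID protein that can also oppose the other ID proteins. It was 1126, 1085 and 1119 in KE and 930, 845 and 936 in NT. The KE cultures were again all higher, with a log2FC of 0.30 (SE 0.07, adjusted p = 0.0046 from limma). This was the smallest change among the 6 called members, and in absolute log2FC it lay at about the middle of all tested genes.

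*Id3* (ENSMUSG00000007872, plus strand of chromosome 4, 135870808 to 135873066), often coexpressed with *Id1*, was 4089, 4537 and 3955 in KE and 4055, 4111 and 4895 in NT. The groups overlapped. The log2FC was -0.05 with a 95% interval from -0.23 to 0.13 (adjusted p = 0.63 from limma), an interval that does not reach the log2FC of *Id1*.

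Taken within each culture, the ratio of *Id1* to *Id2* was 1.55, 1.56 and 1.38 in KE and 0.589, 0.798 and 0.731 in NT. All KE values lay above all NT values. By counts *Id1* was below *Id2* in every NT culture. Per kilobase *Id1* was above *Id2* in every culture of both groups, an order that rests on the exon lengths used, 1775 and 3485 bases. The ratio was 2.13-fold higher in KE on average (exact permutation p = 0.1, the smallest possible). The ratio of *Id1* to *Id3* was 0.484 to 0.523 in KE and 0.332 to 0.354 in NT, and that of *Id4* to *Id2* was 0.739 to 0.818 and 0.404 to 0.463. Neither overlapped between the groups, and both had an exact permutation p = 0.1. Since *Id1* and *Id4* were higher and *Id2* was lower in every KE culture, their ratios to *Id2* had to separate. The p-values of those ratios restate the single genes and add no further support.

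Levels were compared between genes per kilobase of exon, with all annotated exons of a gene joined. The joined exons of *Id2* cover its whole gene, so its level per kb depends on that choice and may be understated. In NT, *Id3* was highest at 2431 ± 262 (SD, n = 3) normalized counts per kb, above 97.8% of the tested genes. It was followed by *Bmpr1a* at 1161, *Id1* at 833, *Id2* at 607, *Bmp6* at 278, *Id4* at 197, *Bmp7* at 54.9, *Smad6* at 30.8, *Bmp2* at 10.5 and *Bmp4* at 1.81. No neighbors in this NT order overlapped in their 3 cultures. In KE, *Id1* rose to 1191 ± 107 (SD, n = 3) per kb and overlapped with *Bmpr1a* at 1139 ± 94.2 (SD, n = 3). *Id4* at 241 per kb was above *Bmp6* at 199.9 in every KE culture, the reverse of their order in NT. *Bmp7* at 30.5 per kb overlapped with *Smad6* at 31.7, and *Bmp2* at 23.0 remained below both. *Bmp6* was the most abundant of the 4 ligands in each group.

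The summed level of the 4 Id genes was 3929 to 4481 per kb in KE and 3822 to 4488 in NT, so the totals overlapped while the shares shifted. *Id1* made up 28.5% ± 0.909 (SD, n = 3) of the sum in KE and 20.5% ± 0.903 (SD, n = 3) in NT. *Id2* made up 9.71% ± 0.389 (SD, n = 3) and 15.0% ± 1.77 (SD, n = 3). *Id3* held the largest share in every culture, between 55.3% and 56.5% in KE and between 58.2% and 60.9% in NT. The shares add to a fixed total and are therefore not independent of each other. Their sizes also depend on the exon lengths used, above all for *Id2*.

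**Figure D3:**
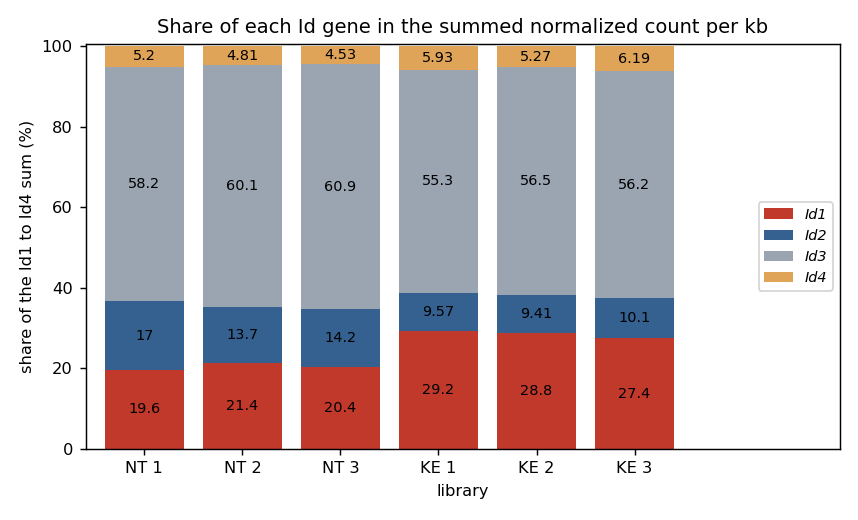
Share (%) of each Id gene in the summed normalized count per kb of Id1 to Id4, as stacked bars, in each NT and KE culture. Id1 takes 27.4% to 29.2% in the KE cultures and 19.6% to 21.4% in the NT cultures, and Id2 takes 9.41% to 10.1% and 13.7% to 17.0%.

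The other genes of the pathway were compared as lists. Of 56 genes, 44 were tested, and 12 were upregulated and 11 downregulated. These 23 DEGs are 52.3% of those tested, close to the 51.3% of all tested genes, and the median log2FC was 0.05. *Bmp5*, *Bmp8a*, *Bmp8b*, *Bmp10*, *Gdf2*, *Gdf5* and *Gdf7* were under the mean filter, *Gdf2* and *Gdf7* being listed at 0 throughout, and *Bmp3* and *Gdf6* were tested and not called (adjusted p = 0.46 and 0.13 from limma, unadjusted p = 0.37 and 0.08). Without NT replicate 1, *Gdf6* was called, with a log2FC of -0.65 (adjusted p = 0.021 from limma).

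All 9 receptor and co-receptor genes were tested, with 2 upregulated and 2 downregulated. That is 44.4% called, beside 51.3% of all tested genes. *Acvr1*, which encodes the type I receptor ALK2, was 1314 to 1575 in KE and 922 to 1076 in NT (log2FC 0.56, adjusted p = 3.1e-04 from limma). *Rgma*, a BMP co-receptor gene, had a log2FC of 0.38. *Bmpr1b*, which encodes the type I receptor ALK6, was lower with a log2FC of -0.48. *Acvrl1*, which encodes the type I receptor ALK1, was 10.5, 10.9 and 14.3 in KE and 123, 92.4 and 147 in NT, which gave log2FC -3.23 (adjusted p = 1.7e-06 from limma).

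Markers of other cells moved with these groups. All 10 microglia and macrophage markers were downregulated, with a summed level of 4025 to 5522 in KE and 31948 to 35876 in NT. Of 6 endothelial markers, 3 were tested and 2 were downregulated, with sums of 237 to 302 and 337 to 496, and *Cdh5* and *Cldn5* were near 0. Of 7 oligodendrocyte lineage markers, 6 were tested and 5 were downregulated. Among 7 neuronal markers, 6 were tested, with 1 upregulated and 2 downregulated, and among 6 fibroblast and mural markers 3 were upregulated and 1 downregulated. Of 10 astrocyte markers, 7 were upregulated and *Gja1* was downregulated, with sums of 194523 to 200354 in KE and 142105 to 150693 in NT. Beside these counts, 25.3% of all tested genes were upregulated and 26.0% downregulated. In bulk RNA, fewer cells of a type and less RNA per cell cannot be told apart, and the part of these cells in the levels of *Acvrl1* and of the 10 genes was not tested.

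Of the 7 SMADs and SMAD ubiquitin ligases, 2 were upregulated and 1 was downregulated. That is 42.9% called, beside 51.3% of all tested genes. *Smad7*, which encodes the other inhibitory SMAD, was 179, 158 and 135 in KE and 86.3, 118 and 114 in NT (log2FC 0.57, adjusted p = 0.017 from limma). Its call was lost without KE replicate 1 (adjusted p = 0.077 from limma) and without NT replicate 1 (adjusted p = 0.063). *Smurf1*, whose product marks SMADs and receptors for degradation, had a log2FC of 0.26. *Smad5* was lower with a log2FC of -0.26, whereas *Smad1*, *Smad9* and *Smad4* were not called, with log2FC of 0.13, 0.09 and -0.06 (adjusted p = 0.15, 0.63 and 0.53 from limma).

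Of 14 antagonists, 11 were tested, with 4 upregulated and 2 downregulated, while the other 3, *Chrdl2* and *Sost* among them, were under the filter. Of those tested, 54.5% were called, beside 51.3% of all tested genes. *Bambi*, which encodes a decoy receptor without a kinase and is itself a BMP target, was 1331, 1426 and 1412 in KE and 410, 441 and 408 in NT. The KE cultures were about 3.31-fold above NT (log2FC 1.73, SE 0.07, adjusted p = 2.5e-08 from limma). *Nbl1* and *Twsg1*, which encode secreted BMP-binding proteins, had log2FC of 0.52 and 0.22. *Grem1*, the gene of the secreted BMP2 and BMP4 antagonist gremlin 1, was singled out after its values were seen. It was 59.7, 38.8 and 57.1 in KE and 2.97, 2.07 and 0 in NT (adjusted p = 3.9e-05 from limma), and no fold is given because the NT values are at the limit of detection. *Sostdc1*, the gene of another secreted antagonist, was lower, at 46.1, 70.0 and 61.6 in KE and 99.0, 119 and 139 in NT (adjusted p = 0.0019 from limma). *Chrdl1* was lower with a log2FC of -0.24, a call lost without NT replicate 3 (adjusted p = 0.072).

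Of 6 further BMP-responsive genes, 5 were tested, and 3 were upregulated and 0 downregulated, beside 25.3% and 26.0% of all tested genes. *Msx2*, which encodes a homeobox factor, was 194, 192 and 204 in KE and 98.7, 114 and 111 in NT (log2FC 0.86, adjusted p = 2.5e-04 from limma). *Atoh8*, which encodes a bHLH factor, had a log2FC of 0.72. *Msx1*, the third, was at a low level, with means of 29.6 and 12.9. *Hey1* and *Dlx2* had log2FC of -0.12 and -0.28 and were not called (adjusted p = 0.22 and 0.18 from limma, unadjusted p = 0.16 and 0.12), and *Dlx5* was under the filter.

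Lastly, 11 genes of E proteins and other bHLH factors that ID proteins bind or oppose were compared. Of the 10 tested, 1 was upregulated and 6 were downregulated, beside 26.0% of all tested genes downregulated, and *Neurog2* was under the filter. The largest fall was that of *Hes5*, a Notch target, with 109, 135 and 124 in KE and 305, 278 and 184 in NT (log2FC -1.03, adjusted p = 8.4e-04 from limma). *Olig2*, which encodes an oligodendroglial factor, was 6004, 6701 and 5576 in KE and 8808, 8555 and 9419 in NT (log2FC -0.55, adjusted p = 8e-05 from limma). The oligodendrocyte lineage markers had sums of 1884 to 2323 in KE and 3289 to 3657 in NT, and their relation to *Olig2* was not tested. *Tcf3*, *Tcf12* and *Olig1* were also among the falls, with log2FC of -0.40, -0.27 and -0.20. The call of *Olig1* was lost without KE replicate 1 or 3 (adjusted p = 0.11 and 0.1 from limma), without NT replicate 1, 2 or 3 (adjusted p = 0.068, 0.073 and 0.061) and without the variance trend (adjusted p = 0.088). *Hes1*, the single rise, had a log2FC of 0.26 (adjusted p = 0.034 from limma). Its call was lost without KE replicate 1, KE replicate 2 or NT replicate 2 (adjusted p = 0.08, 0.093 and 0.12 from limma).

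**Figure D4:**
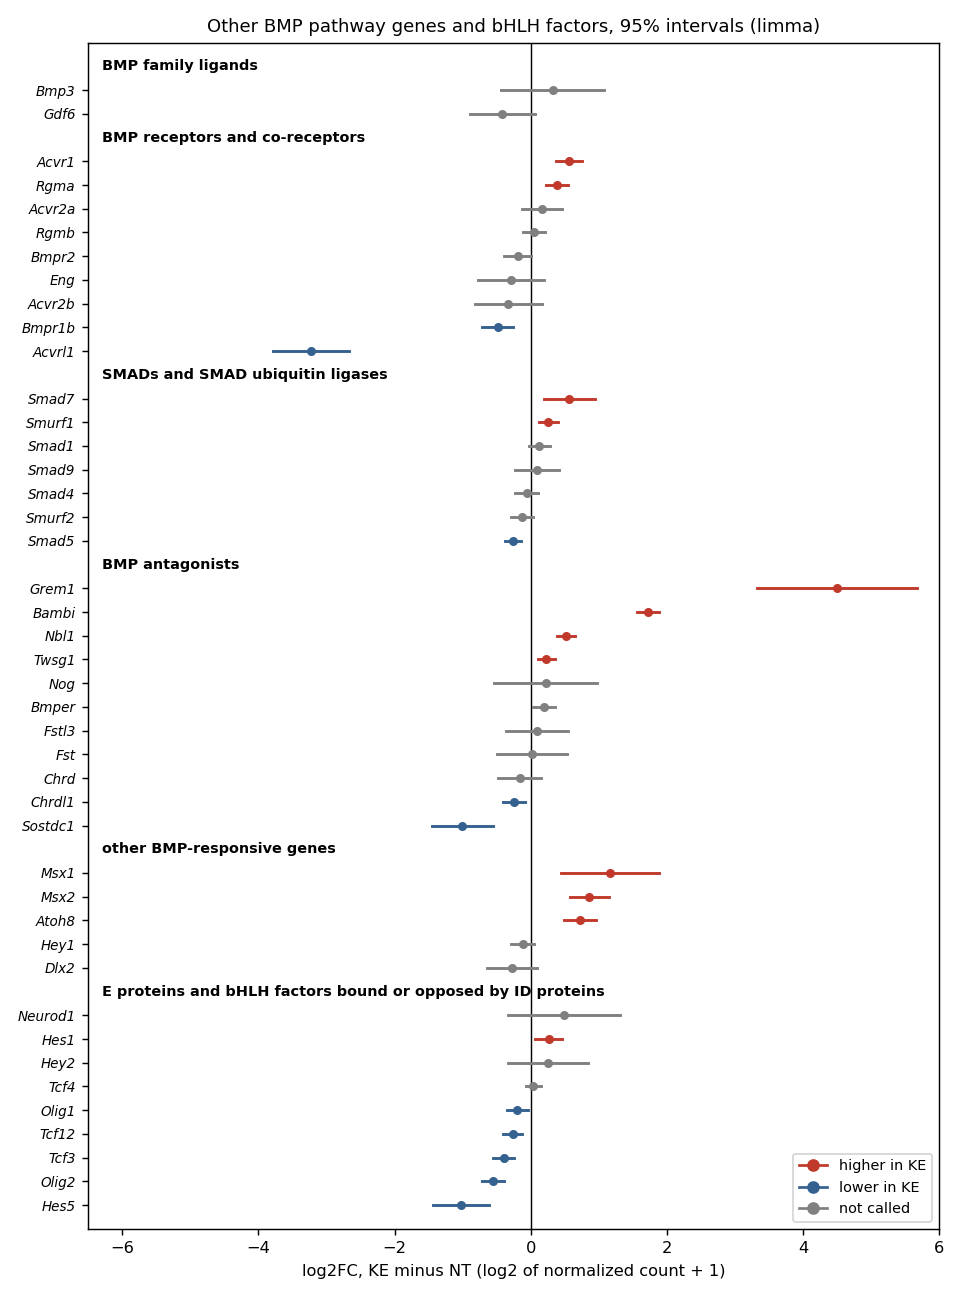
log2FC of KE over NT (horizontal axis, log2 of normalized count + 1) with 95% intervals from limma for tested genes of the 6 other lists, in red where upregulated, blue where downregulated and gray where not called. Acvrl1 at -3.23 lies far below the rest. Bambi at 1.73 is the highest apart from Grem1, whose interval is wide, and the interval of Msx1, from 0.44 to 1.89, includes the value of Bambi.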

How the data were processed

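mRNA of 3 KE and 3 NT cultures was sequenced. The authors deposited a normalized signal per gene, gene counts after DESeq2's size factors, with fractions of a read. The supplemental methods describe TrimGalore, STAR on GRCm39 with Gencode vM28, and Salmon, and batches, unnamed, in the test. The submitters' processing notes name GRCh38, although the identifiers are those of mouse genes. Groups and replicates came from the labels.

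Whole reads could not be recovered, so no count test was run. Low genes are the least precise in KE replicate 2, at approximately 24500000 reads. Genes with a mean of at least 10 were fitted as log2(normalized count + 1) for group alone, two-sided and with a variance trend (limma 3.58.1, R 4.3.3), and adjusted by Benjamini-Hochberg over 15280 genes. Intervals are at 95%. Coordinates and exon lengths came from Gencode vM39 on GRCm39. The fit was tested on simulated data in which few genes changed, unlike here, so that test gives no error rate for these data. The members, lists and alternatives were chosen with earlier results of these data known. Outside the 10 members and *Braf*, the genes named are up to 3 rises and 3 falls per list among DEGs averaging 50 or more, and genes under the filter, and exceptions are pointed out or complete a count. Some genes that enter the counts are not reported here by name. Alternatives were pseudocounts of 0.5 and 5, no filter, a mean of at least 50, quantile or 75th percentile scaling, no trend, the replicate number as a block, and leaving out each culture.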

Additional observations from a re-analysis of the deposited data

How the results depend on the processing

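Under all 14 alternatives, 3 of the 10 genes remained upregulated and 3 downregulated in count, and each of the 6 kept its direction and its call. Leaving out 1 culture at a time gave a log2FC of 1.03 to 1.22 for *Bmp2*, -0.59 to -0.37 for *Bmp6*, -0.998 to -0.732 for *Bmp7*, 0.46 to 0.59 for *Id1*, -0.68 to -0.51 for *Id2* and 0.25 to 0.32 for *Id4*, with a highest adjusted p from limma of 0.02, for *Id4*. Over all alternatives the highest was 0.022, for *Bmp6* without the variance trend. The sign of 3 uncalled genes turned around 0 when 1 culture was left out, with values from -0.098 to 0.009 for *Bmpr1a*, from -0.023 to 0.0913 for *Smad6* and from -0.109 to 0.0361 for *Id3*, and under the other alternatives *Smad6* reached 0.17, also uncalled. *Bmpr1a* was at 0.009 without KE replicate 2, *Smad6* at -0.0014 without KE replicate 2 and -0.023 without NT replicate 1, and *Id3* at 0.0361 without NT replicate 3, and the cause was not tested. Of the 23 DEGs of the other pathway genes, 19 were called under every alternative that tested them and 0 changed sign, *Grem1* and *Msx1* being untested at a mean of at least 50, and *Smad7*, *Chrdl1*, *Hes1* and *Olig1* lost the call at least once, *Olig1* with adjusted p up to 0.11. Among genes not called, *Gdf6* was called without NT replicate 1 (adjusted p = 0.021), *Acvr2a* without KE replicate 1 (0.026), *Bmper* at a mean of at least 50 (0.046) and with quantile normalization (0.022), and *Bmpr2* without KE replicate 3 (0.028) and without NT replicate 2 (0.023). All genes called numbered 6776 to 8046. No scaling moved the median log2FC of all genes beyond 0.029.

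A replicate block (the number as a factor) called 8046 genes, 7669 of them among the 7844, and the log2FC of *Bmp2* was 1.11 (adjusted p = 0.0014 from limma). The block changed no call of the 10 genes, and *Bmpr2* was called (log2FC -0.19, adjusted p = 0.011). Deviations of cultures with the same number correlated at 0.0589 to 0.0664 across genes, those with different numbers at -0.0499 to -0.0105, so each culture correlated best with its own number, a hint from the data only, and the numbers were not treated as pairs.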
